A study of Mus musculus with 24 samples.

Results

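The genes described here encode the MCM replicative helicase, its activation partner MCM10, and the sliding clamp PCNA: Mcm2, Mcm3, Mcm4, Mcm5, Mcm6, Mcm7, Mcm10 and Pcna. They are 8 of 9550 protein-coding genes that carried an exonic protein-protected site (PPS) on at least 1 day. A PPS was assigned to a gene when it overlapped the gene body by at least 1 nt on the same strand of mm10. By this rule, 175 of 138689 PPSs at day 0, 161 of 169575 at day 2 and 99 of 152513 at day 4 lay in the 8 genes.

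A PPS is a stretch of RNA that was enriched in RNase-treated crosslinked RNA when proteins were still present (footprinting) relative to RNA whose proteins had been removed first (structure only). The samples were MEL cells, a murine erythroleukemia line that takes on an erythroid program in DMSO, collected without DMSO (day 0) and after 2 or 4 days in 2% DMSO. Each day had 2 biological replicates crosslinked with formaldehyde, and each replicate gave 4 libraries, with RNaseONE (ssRNase, which cuts unpaired RNA) or RNase V1 (dsRNase, which cuts paired RNA), for 24 libraries in all. MEL cells are a transformed line, and all groups are that line with the same crosslinking, so that day 0 stands for proliferating, uninduced leukemia cells. Exonic PPSs were present on 10 of 11 erythroid marker genes at days 0 and 2 and on 11 of 11 at day 4. The lymphoid and myeloid markers had none. Of the megakaryocyte genes, Itga2b and Pf4 had PPSs on all days and Gp1ba on none.

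During G1, the origin recognition complex with CDC6 and CDT1 loads a ring of MCM2, MCM3, MCM4, MCM5, MCM6 and MCM7 onto replication origins. The ring becomes the replicative helicase once CDC45 and the GINS complex join it, and MCM10 acts in its activation. PCNA encircles DNA behind the helicase and tethers the polymerases. The genes are classic E2F targets of proliferating cells, and erythroid precursors stop dividing as they mature.

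PPSs of 20 to 40 nt, the size of ribosome footprints, were left out of all sites, sequences and coverage values below, unless all lengths are named. They are called short PPSs here, and PPSs of less than 20 nt were kept. The sites themselves are shown first by sequence. For each gene, the site printed is the day 0 PPS with the highest score among those outside that length range and wholly inside the coding sequence (CDS), written 5′ to 3′ on the mRNA strand from the GRCm38.p6 assembly. Capitals mark nucleotides that also lay in a PPS at day 4, with short PPSs again left out.
Mcm2: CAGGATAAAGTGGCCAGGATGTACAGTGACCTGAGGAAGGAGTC
Mcm3: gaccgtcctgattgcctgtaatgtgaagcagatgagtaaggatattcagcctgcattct
Mcm4: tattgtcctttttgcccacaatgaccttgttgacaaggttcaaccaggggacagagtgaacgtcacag
Mcm5: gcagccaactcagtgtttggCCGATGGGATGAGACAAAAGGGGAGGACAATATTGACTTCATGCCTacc
Mcm6: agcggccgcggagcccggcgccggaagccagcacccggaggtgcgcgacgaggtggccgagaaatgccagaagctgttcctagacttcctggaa
Mcm7: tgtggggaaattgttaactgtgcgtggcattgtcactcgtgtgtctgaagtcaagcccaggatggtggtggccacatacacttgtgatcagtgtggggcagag
Mcm10: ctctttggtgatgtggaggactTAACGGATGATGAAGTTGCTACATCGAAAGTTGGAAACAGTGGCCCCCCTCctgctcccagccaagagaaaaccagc
Pcna: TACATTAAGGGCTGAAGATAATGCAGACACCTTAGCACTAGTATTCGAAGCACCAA
The positions in 4 genes were protected again at day 4: Mcm2, Mcm5, Mcm10 and Pcna. The sites of Mcm2 (chr6:88885848-88885891, exon 13 of 16) and Pcna (chr2:132251903-132251958, exon 2 of 6) were covered along their whole 44 and 56 nt. At day 4, 46 of the 69 nt of the Mcm5 site (chr8:75121583-75121651, exon 12 of 17) and 51 of the 99 nt of the Mcm10 site (chr2:5008493-5008591, exon 3 of 20) were covered. No PPS outside the 20 to 40 nt range met the sites of Mcm3 (chr1:20814449-20814507, exon 6 of 17), Mcm4 (chr16:15631699-15631766, exon 9 of 16), Mcm6 (chr1:128359461-128359554, exon 1 of 17) or Mcm7 (chr5:138169110-138169212, exon 5 of 15) at day 4. Short PPSs, each with a single dsRNase call of replicate 2, covered 22 nt of the Mcm4 site and 39 nt of the Mcm7 site at day 4.

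The values below are exonic coverage, the percent of a gene's annotated exonic nucleotides that lay in a PPS. Coverage is given for the list of a day, which merges all calls, and for the subsets of PPSs that hold a call of replicate 1 or of replicate 2. These subsets share the merged coordinates, so their spread is smaller than that of independent calls, and no p-value was computed. With 2 replicates against 2, an exact two-sided permutation test cannot give a p below 0.333. Coverage depends on both the amount of an mRNA and its protection, and less RNA per cell, fewer cells that make it and less protein on it cannot be told apart in these lists.

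From day 0 to day 4, exonic coverage of the day lists was lower for 6 of the 8 genes, with a median change of -8.46 percentage points. It was lower for 4536 of all 9550 genes, whose median change was 0. Replicate subsets cover less than a merged list. When each later replicate was set against each replicate of day 0 (4 pairs), the median change of the 8 genes was -8.40 to -3.50. The change of the lists lies outside this range. For 5 genes, Mcm3, Mcm4, Mcm5, Mcm7 and Mcm10, both day 4 replicates lay below both day 0 replicates. That was the case for 25.4% of all genes and for 29.5% of the 4022 genes whose mean coverage was at least that of the lowest of the 8, Mcm10. Mcm2 was the single gene with both day 4 replicates above both day 0 replicates, as were 30.8% of all genes, and Mcm6 and Pcna overlapped. At day 2, the median change was -4.16 points, with 4 genes (Mcm3, Mcm4, Mcm5 and Mcm7) lower without overlap, against 30.4% of all genes and 42.4% of the genes of at least that mean coverage.

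**Figure D1:**
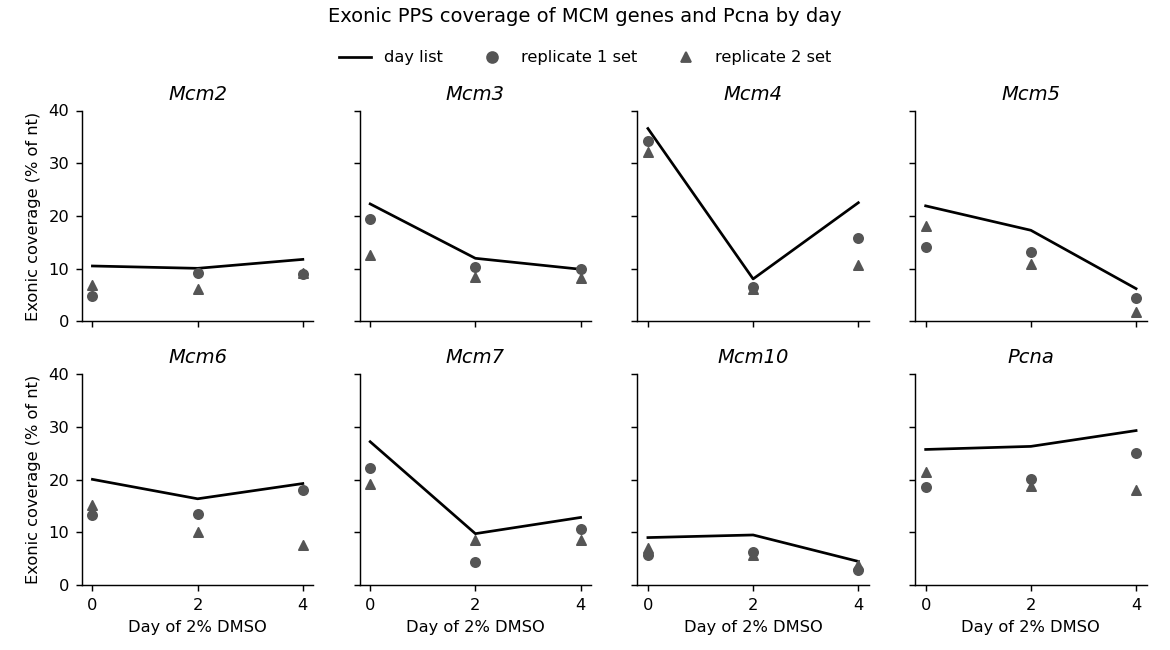
Exonic PPS coverage (percent of exonic nt) against day of 2% DMSO for each of the 8 genes, with a line for the list of the day and symbols for the replicate 1 and replicate 2 subsets. In the day lists, Mcm4 and Mcm7 are lowest at day 2, Mcm5 is lowest at day 4 and Pcna stays between 25.7% and 29.3%. The Mcm7 replicates of days 2 and 4 overlap.

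The MCM ring subunits did not move as one. Mcm4 (chr16:15623897-15637400, minus strand) had the highest exonic coverage of the 8 genes at day 0. Its replicate subsets covered 34.2% and 32.2% of exonic nt at day 0, 6.46% and 6.07% at day 2, and 15.8% and 10.8% at day 4. The days did not overlap, and day 2 was the lowest. In the day lists, the change from day 0 to day 2 was -28.5 points, and 0.178% of all genes had a change at or below it. The change to day 4 was -14.1 points.

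Mcm7 (chr5:138164583-138172422, minus strand) was also lowest at day 2 in the day lists, at 27.2%, 9.74% and 12.8% on days 0, 2 and 4. Its replicates were at 22.3% and 19.2% at day 0, 4.41% and 8.61% at day 2, and 10.6% and 8.59% at day 4, and both later days lay below day 0. Days 2 and 4 overlapped. With all lengths kept, the day lists were at 29.9%, 15.6% and 14.5%, so the order of days 2 and 4 turned. When the CDS of the transcript with the longest CDS was divided into 3 equal parts, the first part of Mcm7 was covered along 58.8%, 6.54% and 5.84% on days 0, 2 and 4, the middle part along 40.2%, 35.0% and 43.7%, and the last part along 42.8%, 7.09% and 12.9%. Thus, without the short PPSs, the start and the end of the Mcm7 CDS were less covered at day 4 but its middle was not. With all lengths kept, the last part was at 46.3%, 30.5% and 12.9% on days 0, 2 and 4, so day 2 lay above day 4. The middle part was then at 46.7%, 40.8% and 43.8%, slightly lower at day 4 than at day 0 in the day lists. In the replicate subsets of all lengths, both day 4 values of the middle part lay above both day 0 values. The strongest Mcm7 site of day 4 lay in the middle (chr5:138167841-138167972, exon 9, score 43.5, with calls in all 4 nuclease and replicate sets). It is printed here because it was larger at day 4 than at day 0, with the 81 nt that lay in a PPS outside the 20 to 40 nt range at day 0 in capitals. A short PPS of day 0, of 26 nt, covered part of the lower-case start.
Mcm7 day 4 site: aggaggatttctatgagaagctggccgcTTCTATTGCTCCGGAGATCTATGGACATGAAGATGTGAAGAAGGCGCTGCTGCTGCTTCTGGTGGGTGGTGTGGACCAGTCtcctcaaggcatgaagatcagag

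Mcm5 (chr8:75109569-75128439, plus strand) and Mcm3 (chr1:20802968-20820312, minus strand) were lower at both later days. The Mcm5 replicates covered 14.1% and 18.2% at day 0, 13.1% and 10.9% at day 2, and 4.46% and 1.75% at day 4, so the larger step came after day 2. The Mcm3 replicates covered 19.4% and 12.6% at day 0, 10.3% and 8.50% at day 2, and 9.89% and 8.26% at day 4. The day 0 replicates of Mcm3 differed from each other by more than those of either later day.

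Mcm2 (chr6:88883474-88898780, minus strand) and Mcm6 (chr1:128331590-128359664, minus strand) gave the exceptions among the ring subunits. The Mcm2 replicates covered 4.87% and 6.99% at day 0, 9.19% and 6.22% at day 2, and 9.04% and 9.09% at day 4. The higher day 4 value of Mcm2 turned to a change of -2.10 points when PPSs of all lengths were kept, to -1.62 with equal numbers of top-scoring PPSs per day and to -1.37 with dsRNase calls alone. The Mcm6 replicates covered 13.2% and 15.2% at day 0, 13.5% and 9.97% at day 2, and 18.0% and 7.61% at day 4. The day 4 replicates of Mcm6 lay on either side of day 0. With dsRNase calls alone, the day 4 change of Mcm6 in the day lists was -1.78 points, also with overlapping replicates.

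Mcm10 (chr2:4989714-5012791, minus strand), which is not part of the ring, had the lowest mean coverage of the 8 genes. Its replicates covered 5.72% and 7.05% at day 0, 6.20% and 5.75% at day 2, and 2.77% and 3.71% at day 4, so that only day 4 lay below day 0. Pcna (chr2:132249162-132253314, minus strand) had the highest mean coverage, above that of 96.0% of all genes or equal to it. Its replicates covered 18.5% and 21.4% at day 0, 20.1% and 18.7% at day 2, and 25.0% and 18.0% at day 4, and the days overlapped. In the order of mean coverage over the 3 day lists, Pcna (27.1%) came first, followed by Mcm4 (22.4%), Mcm6 (18.5%), Mcm7 (16.6%), Mcm5 (15.1%), Mcm3 (14.7%), Mcm2 (10.8%) and Mcm10 (7.65%). Averaged over the days, the replicates of Mcm6 overlapped those of Mcm7 and the replicates of Mcm5 those of Mcm3, whereas the other neighbours in this order did not overlap. The order rests on the exons of all annotated transcripts, 6956 nt in Mcm2 and 7692 nt in Mcm10 against 3589 nt in Mcm4. In CDS coverage of the day lists, Mcm2 was at 26.2%, 24.5% and 29.7% on days 0, 2 and 4. Mcm4 was at 37.1%, 8.97% and 25.1%, so Mcm2 lay above it at days 2 and 4.

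The 2 nucleases gave different accounts of the same genes. In the dsRNase call sets, mean exonic coverage of the 8 genes was 13.2% and 13.4% in the day 0 replicates, 7.47% and 6.14% at day 2, and 8.35% and 5.51% at day 4. In the ssRNase call sets it was 5.08% and 4.41% at day 0, 5.85% and 4.68% at day 2, and 5.42% and 4.01% at day 4. The dsRNase values of both later days lay below day 0, and the ssRNase values overlapped. Relative to the mean of all 9550 genes in the same call set, dsRNase coverage of the 8 genes was 3.59-fold and 3.19-fold at day 0, 2.45-fold and 3.03-fold at day 2, and 1.68-fold and 1.40-fold at day 4. With ssRNase, the ratio stayed between 1.09-fold and 1.68-fold in the 6 call sets. The number of calls in a set moves these means, and dsRNase call sets held 34589 and 41265 calls at day 0, 41323 and 20927 at day 2, and 68632 and 52174 at day 4. Per 100000 dsRNase calls, of all lengths, 223 and 201 fell in the 8 genes at day 0, 133 and 225 at day 2, and 65.6 and 74.7 at day 4. With ssRNase the same number was 68.8 and 65.5 at day 0, 71.5 and 65.9 at day 2, and 61.7 and 46.1 at day 4. At day 4 the share of dsRNase calls in these genes thus lay below both earlier days, close to that of ssRNase calls.

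**Figure D2:**
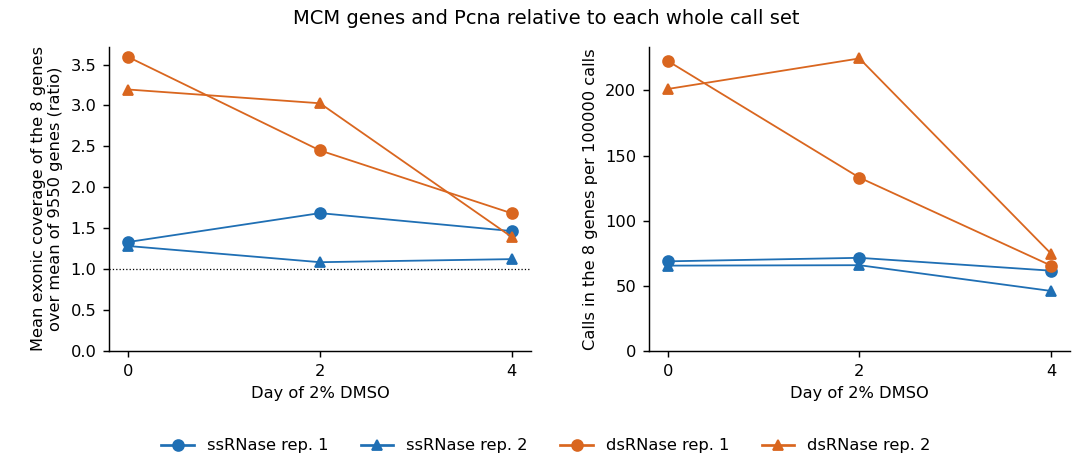
Left, mean exonic coverage of the 8 genes divided by that of 9550 genes in each of the 12 call sets (dotted line, equal to the mean gene), and right, calls in the 8 genes per 100000 calls, both against day of 2% DMSO. The dsRNase points come down to between 1.40 and 1.68 on the left and between 65.6 and 74.7 on the right at day 4, next to the ssRNase points.

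Gene by gene, 5 of 8 genes (Mcm3, Mcm4, Mcm5, Mcm7 and Mcm10) had lower dsRNase coverage at day 4 than at day 0 without overlap, against 18.9% of the 8796 genes with a dsRNase site. With ssRNase calls, 2 of 8 (Mcm4 and Mcm5) did, against 22.4% of 9113 genes. At day 2, the counts were 4 of 8 with dsRNase (Mcm4, Mcm5, Mcm6 and Mcm7), against 30.6%, and 2 of 8 with ssRNase (Mcm3 and Mcm4), against 17.4%. In the day lists of dsRNase calls, all 8 genes were lower at day 4 than at day 0, as were 3677 of the 8796 genes. The dsRNase replicates of Mcm2, Mcm6 and Pcna overlapped between these days. Mcm4 and Mcm7 carried the largest dsRNase changes. For Mcm4, the dsRNase replicates were at 28.7% and 30.1% at day 0, 2.95% and 0% at day 2, and 12.7% and 7.77% at day 4. For Mcm7, they were at 18.1% and 18.0% at day 0, 1.83% and 4.79% at day 2, and 7.48% and 6.06% at day 4. The day 0 replicates of these genes differed by far less than the days did.

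In contrast, ssRNase coverage of Mcm7 was 6.85% and 5.06% at day 0 and 9.26% and 7.70% at day 4, higher without overlap. Mcm2 was also higher with ssRNase, at 0.719% and 1.57% at day 0 and 3.72% and 5.26% at day 4, and so was Mcm6, at 1.97% and 4.18% at day 0 and 8.42% and 4.54% at day 4. These 3 of 8 genes stand beside 23.3% of all genes with an ssRNase site, of both strands. All 3 lie on the minus strand. In ssRNase replicate 2, the plus strand held 66.8% of calls at day 0 and 43.4% at day 4. Mean exonic coverage of the 4701 minus-strand genes went from 2.68% to 4.15% in that replicate and from 3.69% to 3.80% in replicate 1. The part of this imbalance in the higher values was not tested. Pcna was covered mostly through dsRNase calls, at 14.2% and 21.4% at day 0, 20.1% and 18.7% at day 2, and 18.6% and 15.5% at day 4. Its ssRNase coverage was 4.33%, 6.92% and 10.9% in replicate 1 on days 0, 2 and 4, and 0%, 0% and 2.50% in replicate 2. In the transcript with the longest CDS, ssRNase coverage of the CDS and both UTRs was 0% in both replicates at day 0. It was also 0% there in replicate 2 at day 4, so these values came from exons of other transcripts.

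**Figure D3:**
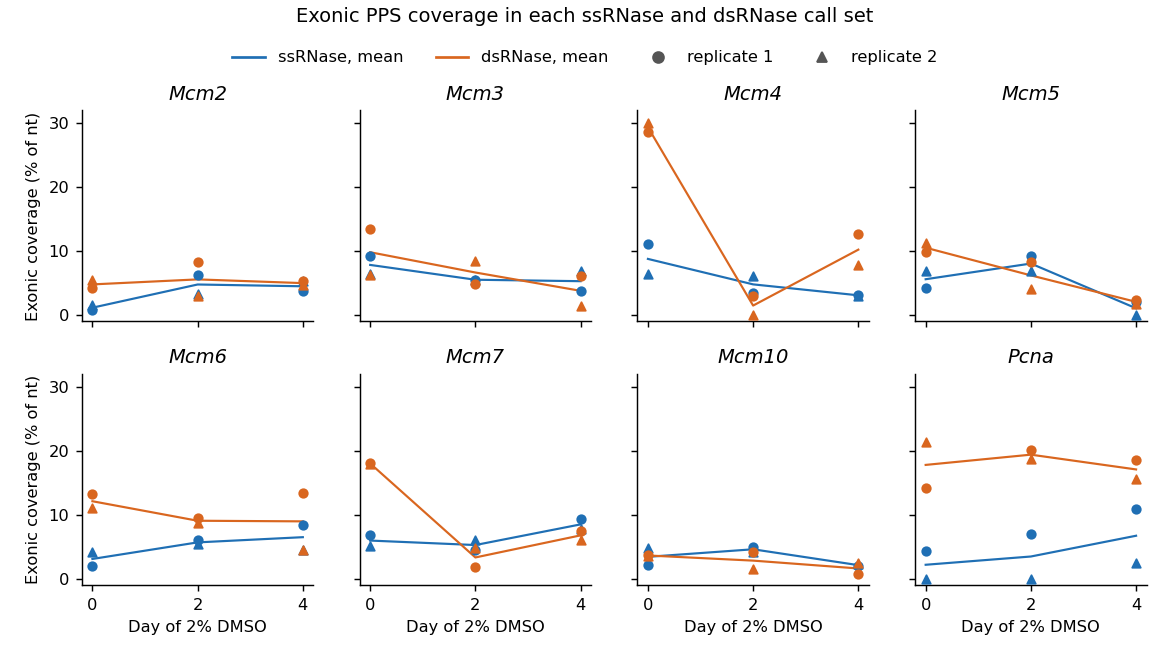
Exonic coverage (percent of exonic nt) in each ssRNase and dsRNase call set against day of 2% DMSO, with symbols for replicates and lines for their mean. The dsRNase points of Mcm4 and Mcm7 start at 28.7% or more and at about 18.0% and are lowest at day 2, while Pcna stays high with dsRNase on all days.

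Along the mRNAs, the sites lay mostly in coding sequence. After the length filter, 128, 102 and 77 PPSs remained in the 8 genes at days 0, 2 and 4, of which 93, 70 and 62 touched the CDS of the transcript with the longest CDS. Both replicates supported 35.9%, 27.5% and 32.5% of them, against 30.8%, 30.8% and 35.8% of all PPSs of that length. Their median length was 62, 54.5 and 59 nt. CDS coverage was highest for Pcna, at 53.6%, 48.4% and 47.4% in the 3 day lists, and the middle of 3 equal parts of the Pcna CDS was at 82.4%, 93.1% and 73.2%. For Mcm7, CDS coverage on the 3 days was 47.3%, 16.2% and 20.8%, and with all lengths kept 52.9%, 28.3% and 24.3%.

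**Figure D4:**
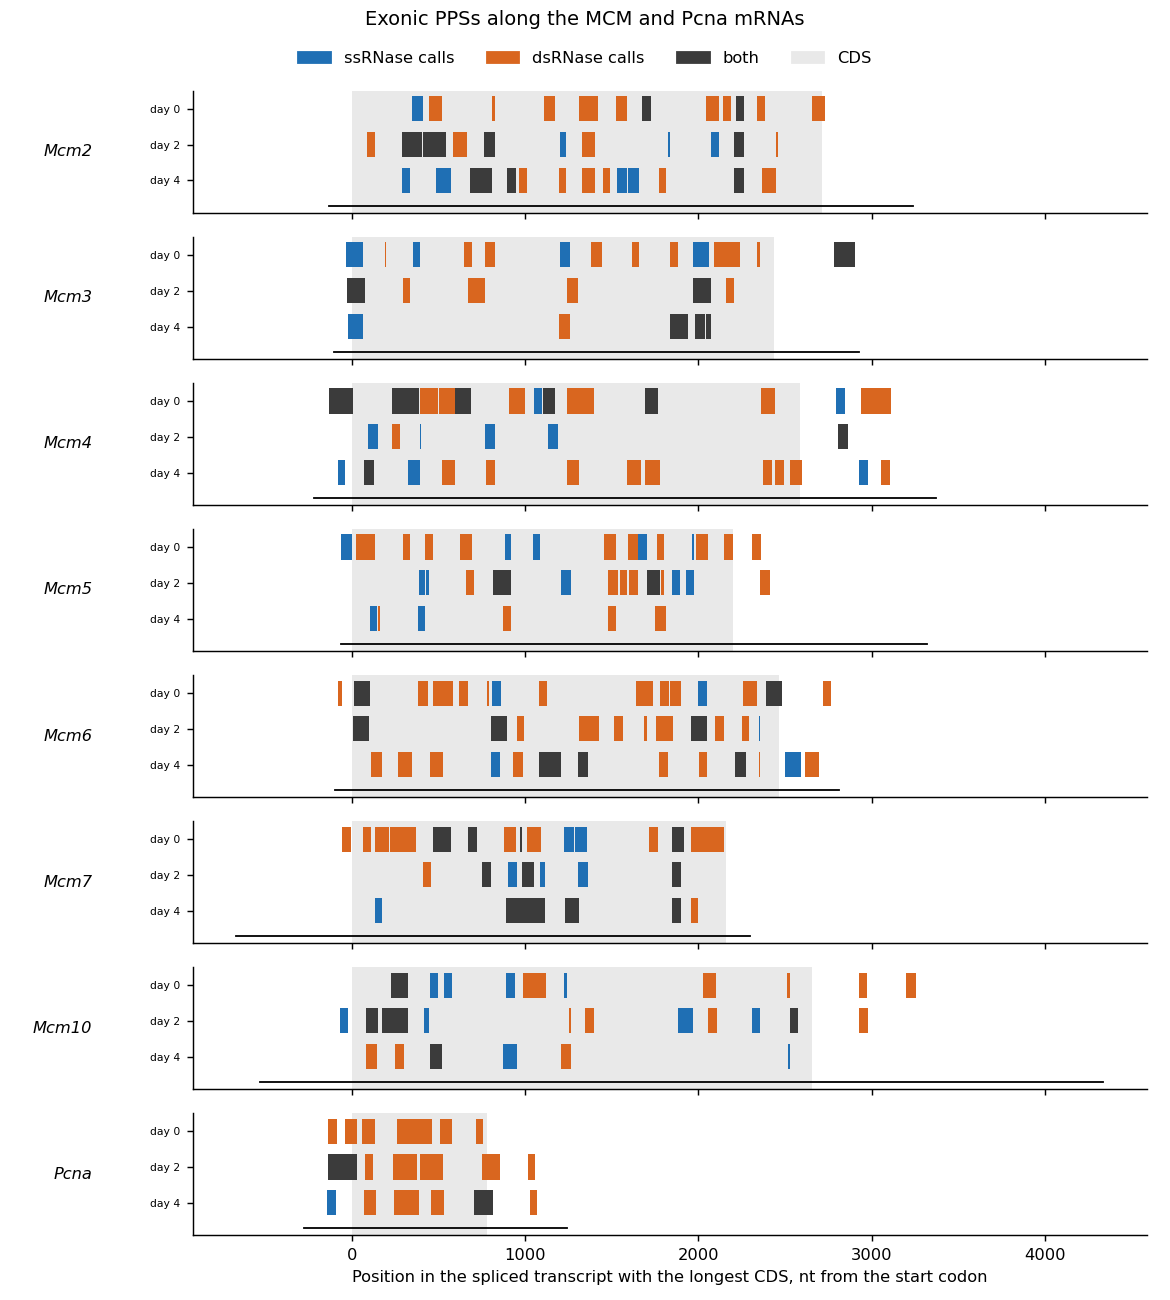
PPSs (20 to 40 nt excluded) along the spliced transcript with the longest CDS, in nt from the start codon, with a row per day, colours for the nuclease and grey for the CDS. Pcna shows dsRNase sites at the same places on the 3 days, whereas the 5′ sites of Mcm4, Mcm5 and Mcm7 seen at day 0 are fewer later.

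At the 5′ end, the start codon lay inside a PPS in 4 of the 8 genes at day 0 (Mcm3, Mcm4, Mcm5 and Pcna), in 2 at day 2 (Mcm3 and Pcna) and in 1 at day 4 (Mcm3). The shares over all 9550 genes were 17.0%, 16.0% and 13.9%. The Mcm5 start codon was covered at day 0 only by ssRNase replicate 2, in a 12-nt PPS with 1 call. That set held 66.8% of its calls on the plus strand, on which Mcm5 lies. The Mcm3 start codon was covered by ssRNase calls of both replicates on all 3 days. The part of this site common to the 3 days, from 20 nt before the start codon on (chr1:20820144-20820228), is printed with the start codon in capitals because it was the one start site that lasted.
Mcm3 start site: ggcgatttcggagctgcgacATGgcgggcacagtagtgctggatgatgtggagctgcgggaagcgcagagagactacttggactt
The 61-nt 5′ UTR of Mcm5 was covered along 86.9% and 100% of its length in the day 0 ssRNase replicates and along 0% at days 2 and 4. The 5′ UTR of Mcm4 was covered along 58.6% in both replicates at day 0, 0% in both at day 2, and 18.6% and 0% at day 4. At the 3′ end the order turned for Mcm6, whose 3′ UTR was covered along 6.32% and 14.1% at day 0, 0% at day 2, and 49.7% and 26.4% at day 4. The 3′ UTR of Mcm3 was covered along 25.1% in both replicates at day 0 and 0% later. With all lengths kept, Mcm4 5′ UTR coverage at day 2 was 0% and 15.9%, Mcm6 3′ UTR coverage was 6.32% and 23.3% at day 0 and 0% and 10.6% at day 2, and Mcm3 3′ UTR coverage at day 4 was 0% and 7.54%. These values left the order of days 0 and 4 as it was. For the 3′ UTR of Pcna they did not, since coverage was 0% in both day 0 replicates and 16.6% and 7.00% at day 4 without the short PPSs, but 14.7% and 6.78% at day 0 with them, which overlapped the unchanged day 4 values.

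When overlapping PPSs of the 3 days were joined, the 8 genes held 150 exonic regions. Of these, 29 (19.3%) were protected on all 3 days, 38 (25.3%) at day 0 alone and 16 (10.7%) at day 4 alone. Over all 108606 exonic regions of protein-coding genes, the shares were 16.3%, 19.3% and 19.8%. Pcna had no region of day 0 alone, and 9 of its 10 day 0 exonic sites met a day 4 PPS. For Mcm5, 4 of 16 did, and for Mcm3 4 of 14, beside 50.4% of all 61431 day 0 exonic sites. Mcm7 and Mcm4, with 9 of 16 and 9 of 15, had lower coverage at day 4 although more than 50.4% of their day 0 sites were met again.

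Intronic protection was sparse and differed by gene. After the length filter, 19, 24 and 2 sites lay wholly in introns on days 0, 2 and 4. In the day lists, the median change of intronic coverage was -0.675 points from day 0 to day 4 and 0.282 points from day 0 to day 2. Over pairs of replicate subsets, which cover less, it was -0.160 to -0.145 and -0.0146 to 0.156, the latter with no single direction. No intronic PPS was seen in Mcm3. Outside the exons of all annotated transcripts, Pcna introns were covered only at day 2, at 8.10% and 4.11% in the ssRNase replicates, by sites with a single call each. At days 0 and 4, Pcna also had ssRNase sites outside the exons of the transcript with the longest CDS. These lay in exons of other transcripts and counted as exonic, so the pattern of day 2 alone depends on the annotation.

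Mcm5 held the most intronic sites, with 12 at day 0, 10 at day 2 and 1 at day 4. Its intronic coverage was 5.65% and 4.27% in the day 0 replicates, 1.81% and 3.26% at day 2, and 0.618% and 0% at day 4, and it came mainly from ssRNase calls. Mcm5 is the single plus-strand gene of the 8, and ssRNase replicate 2 had 66.8% of its calls on the plus strand at day 0 and 43.4% at day 4, against 49.8% to 51.9% in the other ssRNase sets. The part of this imbalance in the pooled values was not tested. In replicate 1, which lacked this imbalance, ssRNase intronic coverage of Mcm5 on days 0, 2 and 4 was 4.90%, 1.40% and 0.618%. Exonic coverage of Mcm5 with dsRNase calls, whose plus-strand share was 51.3% to 51.5% in all 6 sets, was 9.82% and 11.2% at day 0, 8.36% and 4.03% at day 2, and 2.35% and 1.75% at day 4. Both day 4 replicates were below both at day 0 in 29.1% of plus-strand and 21.6% of minus-strand genes.

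The longest site of the 8 genes was a 462-nt PPS in intron 2 of Mcm10 (chr2:5009722-5010183), with dsRNase calls of both replicates and ssRNase calls of replicate 1 at day 0. It lay within a 494-nt tandem array of a 33-nt unit, with 100% identity between successive units inside the PPS, and is printed as 1 unit because the repeat accounts for the whole site.
Mcm10 intron unit: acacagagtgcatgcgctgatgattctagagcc
In the day lists of days 0, 2 and 4, the array was covered along 93.5%, 84.0% and 66.4%. Outside the array, intronic coverage of Mcm10 was 0% at days 0 and 4 and 0.564% at day 2, apart from a 32-nt PPS left out for its length at days 0 and 2. A 50-nt window of the array, the read length used, occurred at 14 positions in the array and 15 in the assembled chromosomes, so reads from it could not be assigned to 1 position. The part of this mapping in the long site was not tested.

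An intron of the Mcm7 transcript with the longest CDS hosts the microRNAs Mir25, Mir93 and Mir106b, in the order of rising coordinates, at chr5:138165321-138165404, chr5:138165523-138165610 and chr5:138165737-138165818. No PPS of any length overlapped the 3 hairpins on any day, and the nearest PPS was 141 to 349 nt away. Mir25 and Mir93 also lie in an exon of a Mcm7 transcript that has no annotated CDS. Over all 2202 annotated miRNA genes, 4.04%, 5.36% and 4.27% overlapped a PPS at days 0, 2 and 4. The nearest recurrent site was in Mcm7 exon 14, at chr5:138165093-138165159 at day 0, and was met by PPSs on all 3 days.

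Other replication genes were read from 5 lists of 66 genes by role, all of them measured. The lists were drawn up with earlier results of these data known, so their counts are a description. From day 0 to day 4, 38 of 66 were lower without overlap and 4 were higher (Mcm9, Donson, Rfc1 and Rnaseh2a), beside 25.4% and 30.8% of all genes, with a median change of -4.57 points. Donson was higher in the replicate subsets but not in the day lists, where its change was -0.38 points. At day 2, 29 were lower and 11 higher, beside 30.4% and 22.3% of all genes. The day 2 median of -2.64 points was close to the -2.50 of the 4022 genes of at least the mean coverage of Mcm10, of which 42.4% were lower. With dsRNase calls alone, 32 of 61 were lower at day 4 and 3 higher, beside 18.9% and 29.5% of genes with a dsRNase site. With ssRNase calls alone 30 of 65 were lower and 4 higher, beside 22.4% and 23.3%.

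Of the licensing genes, which load the helicase, 7 of 12 were lower at day 4 and 1 higher, with a median of -4.18 points, and the counts of each list are to be read against the same 25.4% and 30.8% of all genes. The largest changes were in Gmnn, which encodes the CDT1 inhibitor geminin (20.5% at day 0 and 5.87% at day 4), Orc1, a subunit of the origin recognition complex (13.3% and 0%), and Mcmbp, whose product binds MCM proteins (13.2% and 4.54%). Of the genes for origin firing and the fork, 8 of 15 were lower and 1 higher, with a median of -6.35. Recql4, a RecQ helicase gene, was at 40.6% at day 0 and 1.17% at day 4, Cdc7, the kinase that phosphorylates MCM subunits, at 27.3% and 3.44%, and Tipin, a fork protection factor, at 20.2% and 3.10%.

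Of the polymerase and RPA genes, 8 of 15 were lower and 0 higher, with a median of -4.55, led by Pola1 (23.1% and 11.6%), Pold1 (10.5% and 0%) and Pole (14.6% and 5.39%), the catalytic subunits of the replicative polymerases. Of the genes for clamp loading, Okazaki fragment processing and chromatin assembly, 8 of 16 were lower and 2 higher, with a median of -3.68. Fen1, the flap endonuclease that PCNA recruits, was at 34.8% and 15.8%, Lig1, the ligase that joins Okazaki fragments, at 17.0% and 4.78%, and Dna2, a nuclease-helicase, at 11.4% and 0%. Of the nucleotide supply genes, 7 of 8 were lower and 0 higher, with a median of -5.16. The largest changes there were in Dctpp1 (25.6% and 0%), Rrm2, the small subunit of ribonucleotide reductase (21.5% and 0%), and Dck, deoxycytidine kinase (11.1% and 1.32%). In all 15 genes named from the lists, both day 4 replicates lay below both day 0 replicates, as the naming by size of change favours. Of the 5 genes given as 0% at day 4, Orc1, Pold1 and Dna2 were at 1.15%, 0.782% and 1.55% with all lengths kept, and Dctpp1 and Rrm2 at 0%.

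**Figure D5:**
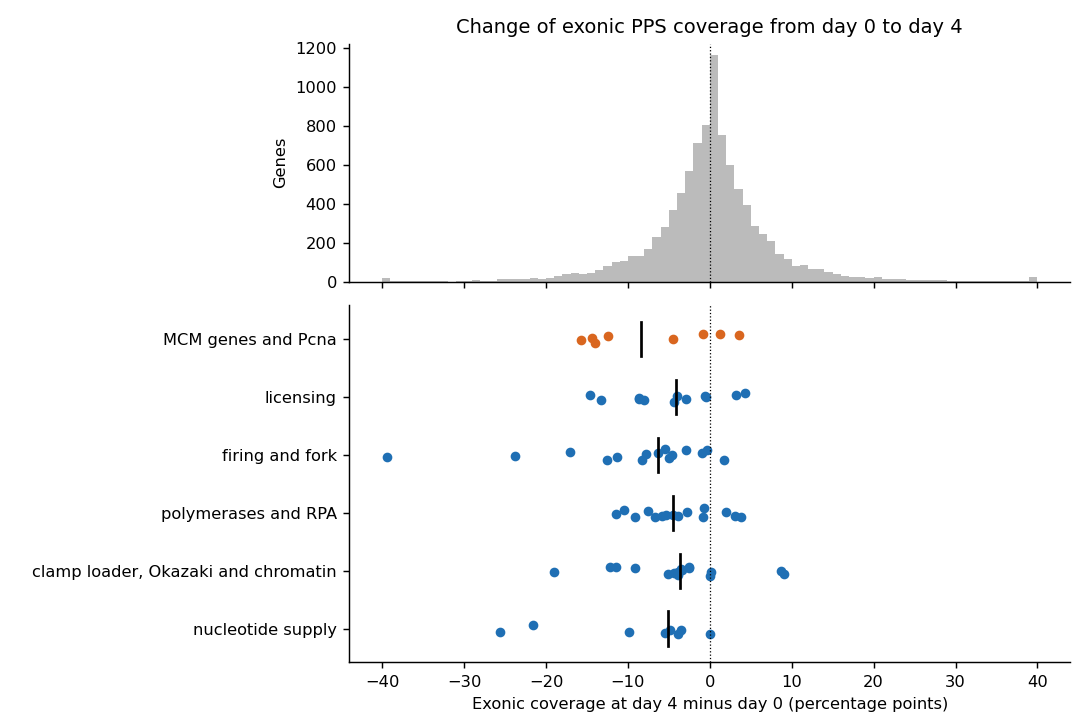
Top, number of genes by day 4 minus day 0 exonic coverage in percentage points, for 9550 genes (values beyond 40 in either direction are drawn at the ends), and bottom, the same change for the 8 genes and for 5 lists of replication genes, with a point per gene and a black line at the median. The medians of the 6 rows lie between -8.46 and -3.68, with Mcm2 and Pcna to the right of 0.

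The genes whose exonic coverage over the 12 call sets was most like the mean of the 8 were Rac1 (Pearson r = 0.967), Rfc5 (0.961), Nolc1 (0.958), Nucks1 (0.953) and Sgo1 (0.948), from 6713 candidates. These call sets share nuclease and day, and the values are a description. Rfc5, a clamp loader subunit, was covered along 7.05%, 2.87% and 3.15% at days 0, 2 and 4, and Nolc1, a nucleolar phosphoprotein, along 37.5%, 10.2% and 8.81%. Nucks1 was at 28.6%, 21.1% and 18.9%, and Sgo1 at 7.82%, 4.41% and 3.07%. Rac1, the closest match, was at 15.3%, 7.21% and 12.1%, so its coverage rose again from day 2 to day 4.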

How the data were processed

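PIP-seq libraries of MEL cells were 50-nt strand-specific reads. The authors trimmed them with cutadapt (version 1.2.1), aligned them to mm10 with TopHat2 (version 2.0.10) with up to 10 alignments per read, called regions enriched in footprinting over structure-only libraries with a Poisson test at a 5% FDR, and merged the calls of each day into 1 list. Per the labels and deposited files, each PPS has a score, which is never below 5.4, and the names of the nuclease and replicate calls that it merges. No read counts were used here, so the depth behind a site is unknown, and its measure is the number of calls, 20927 to 91091 in the 12 call sets. Gene models were from GENCODE M21 (GRCm38, the assembly that mm10 names). Coverage was computed with Python 3.11.15 and numpy 2.4.6, and sequences were read with pysam 0.24.0 from GRCm38.p6, in which every CDS of the 8 genes began with ATG.

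Union exons of a gene counted as exonic and the rest of its body as intronic. PPSs of 20 to 40 nt were left out, as in the study. They made up 17.15%, 29.54% and 19.98% of all PPSs in the lists of days 0, 2 and 4, so the filter took most at day 2. The change is the coverage of the later list minus that of day 0. Ranges over the 4 replicate pairs come from the replicate subsets, which cover less, and need not hold the change of the lists. A gene was called lower when both later replicates lay below both day 0 replicates. Coverage functions were checked on simulated data. Members and lists were chosen with earlier results of these data known. Named were the 8 genes, per list the 3 genes whose coverage changed most by day 4 in either direction, the 5 genes most correlated with the mean of the 8 (at least 500 exonic nt, sites in at least 6 call sets), and hosted small RNAs. The alternatives were all lengths, a score of at least 10, equal list sizes, sites of both replicates, each nuclease, 1 transcript, unshared nucleotides, each replicate left out and same-numbered pairs. Structure-only libraries were not analysed here on their own.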

Additional observations from a re-analysis of the deposited data

Results flagged for a closer look

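For 2 genes the nucleases moved opposite ways in every pair of replicates, a difference between ssRNase and dsRNase that was not tested. From day 0 to day 4, the mean change of Mcm7 exonic coverage was 2.53 points with ssRNase and -11.3 points with dsRNase, a difference of -13.8 points. Among the 8359 genes with sites of both nucleases, 1.36% were higher with ssRNase and lower with dsRNase in every pair at day 4. From day 0 to day 2, the mean change of Mcm6 was 2.59 points with ssRNase and -3.05 points with dsRNase, a difference of -5.65 points, and 4.13% of genes showed that combination. Both shares pool the strands, and both genes lie on the minus strand. The part of the strand imbalance of ssRNase replicate 2 in these differences was not tested.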

How the results depend on the processing

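Counts of genes lower at day 4 were 2 with ssRNase calls alone and otherwise 5, apart from 5 to 7 when a replicate was left out (7 without day 4 replicate 1). At day 2 the count of 4 became 7 with scores of at least 10, 2 with ssRNase calls and 4 to 7 when a replicate was left out (7 without day 0 replicate 1). The median exonic change at day 4 kept its sign in all settings. It was -2.82 with scores of at least 10, -1.88 with sites of both replicates, -0.117 with ssRNase calls and -4.79 with dsRNase calls. Leaving out a replicate gave -7.17 to -3.67 (-3.67 without day 0 replicate 1, -4.87 without day 4 replicate 2), from means of replicate subsets, which cover less than a merged list. At day 2 it was -2.31 with sites of both replicates, -6.17 with the transcript of longest CDS, 1.84 with ssRNase calls, a reversal, and -4.75 to -1.79 without a replicate (-1.79 without day 0 replicate 2, -1.85 without day 2 replicate 2). The cause of these differences was not tested.

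The median intronic change at day 4 was -0.764 with all lengths, 0 with scores of at least 10, -0.0146 with sites of both replicates, -0.107 and -0.193 with ssRNase and dsRNase calls, -0.719 with 1 transcript and -0.500 to -0.145 without a replicate. At day 2 it was 0 with scores of at least 10 and with sites of both replicates, -0.0437 with dsRNase calls, -0.141 with 1 transcript and -0.338 to 0.120 without a replicate, so it has no settled direction. By gene, changes without overlap between replicates that turned sign were those of Mcm2 at day 4 (-2.10 with all lengths, -1.62 with equal numbers of PPSs, -1.37 with dsRNase calls), Mcm5 at day 2 (3.51 with ssRNase calls) and Mcm7 (2.51 at day 4 and 0.610 at day 2 with ssRNase calls). Among changes whose replicates overlapped, the sign turned for Mcm2, Mcm6, Mcm10 and Pcna at day 2 in 8, 1, 5 and 6 of 13 settings, and for Mcm6 and Pcna at day 4 in 2 and 5. The day 4 change of Mcm3, Mcm4, Mcm5 and Mcm10 was negative in all 13 settings, although the replicates of Mcm3 and Mcm10 overlapped with ssRNase calls.

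With the replicate block, in which same-numbered replicates are paired, the median exonic change was -5.04 at day 4 and -3.30 at day 2, the intronic change -0.420 and 0.0808, and the counts stayed at 5 and 4. The sample titles give the replicates only a number. Deviations of same-numbered replicates correlated at -0.0762 (days 0 and 2), -0.0576 (days 0 and 4) and 0.0263 (days 2 and 4) over 9550 genes. These values cannot show whether same-numbered replicates share an origin, since differences between call sets also enter them. Counts with sites of both replicates could not be made, as that setting leaves no replicate subsets. Depth limits sites with few reads, and 0% coverage means that no site outside 20 to 40 nt was called, not that no protein was bound.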
